A study of Mus musculus with 6 samples.

Results

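The complement and coagulation genes of the liver are described here by their RNA levels in small Maf knockout and control mouse liver. The genes are 36 named components of complement, clotting and fibrinolysis, each read through the array probe whose transcript accession belongs to it and, where a gene had several probes, through the brightest. Of the 36 genes, 35 were tested among 21059 genes and unmatched transcripts, and Cfd was too dim to test. The mice were 5 weeks old, on a mixed background of 129Sv/J, C57BL/6J and ICR. One group of 3 liver RNA samples came from mice with a liver-specific small Maf knockout (sMaf CKO) and the other of 3 from mice labelled control wild type, with 1 one-colour array for each sample. The small Maf proteins are bZIP transcription factors without which the CNC factors, such as NRF1 and NRF2, do not bind their DNA sites. The labels name neither the small Maf genes deleted, nor the driver of the deletion, nor the sex of the mice. They call the RNA samples of a genotype independent, so the p-values measure the spread between these samples.

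Hepatocytes make most of the complement and clotting proteins of plasma. Complement is started by C1 on antibody, by the mannose-binding lectins on sugars or by slow turnover of C3, and all routes cleave C3 and can end in a membrane pore. Clotting runs as a cascade of serine proteases that ends with thrombin cutting fibrinogen into fibrin, and plasmin later dissolves the clot. Many clotting factors need a vitamin K dependent carboxylation in the hepatocyte before they can bind membranes.

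A level below is the log2 signal of a probe minus the 75th percentile of its array, which removes differences in overall brightness. That percentile, in scanner units, spanned 484.4 to 960.5 in the sMaf CKO group and 483.4 to 609.3 in the control group, with sMaf CKO replicate 1 the brightest. Replicates 1 and 2 of each genotype lay on slide 1 and replicate 3 of each on slide 2. Mafg, which encodes a small Maf protein, had levels of -2.97, -4.36 and -0.76 on sMaf CKO arrays 1, 2 and 3, against 1.88, 1.87 and 2.23 on control arrays. In sMaf CKO 1, 2 and 3 this left 3.20%, 1.22% and 14.8% of the signal of an average control, and whether the probe lies in a deleted part of the gene is not known. The difference was -4.69 (SE 0.79, adjusted p = 0.0533 in limma's test, 0.0207 with slide as a block). Maff and Mafk, which also encode small Maf proteins, differed by 0.15 and 0.21 with overlapping arrays (adjusted p = 0.911 and 0.759 by limma). All 9 hepatocyte markers tested were well above background on all 6 arrays.

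Of the 35 complement and coagulation genes, 1 passed the test over all genes. That gene was Klkb1, which encodes plasma prekallikrein and fell 2.39-fold. Of the others, F11, F7 and C8g had the most negative differences and C6 the most positive. Over all genes tested, 0.541% passed limma's test at a Benjamini-Hochberg adjusted p under 0.05, and 0.157% passed with a lower level in sMaf CKO liver. The median log2 fold change (sMaf CKO over control) of the 35 genes was -0.46, beside -0.05 for all genes tested, and 32 of the 35 were negative, beside 54.7% of all genes. The median was -0.19 (23 negative) under quantile normalization and -0.13 (28 negative) under spike-in scaling. Under the same scalings the median of all genes was 9.7e-05 and 0.27. In the main scaling, sMaf CKO array 3 alone lay 0.01 from the control mean in the median. An unadjusted p under 0.05 was found for 12 genes with negative and 1 with positive differences, where all genes gave 8.1% and 8.71%. All 3 sMaf CKO arrays lay below all 3 control arrays for 9 genes (11.6% of all genes tested) and above them for 1, which was C6 (11.3% of all genes tested). The signal comes from whole liver, in which fewer cells of a type and less RNA per cell cannot be told apart. On the same arrays, 9 of 9 hepatocyte markers were negative too (median -0.45), none of them past the test. They had a summed linear level of 1299 to 2139 in sMaf CKO and 2014 to 2435 in control liver. That sum rests mostly on Alb and Trf (mean levels 9.19 and 8.69 in sMaf CKO liver, 9.61 and 9.04 in control liver). The part of hepatocyte RNA as a whole in the differences of the 35 genes was not tested.

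**Figure D1:**
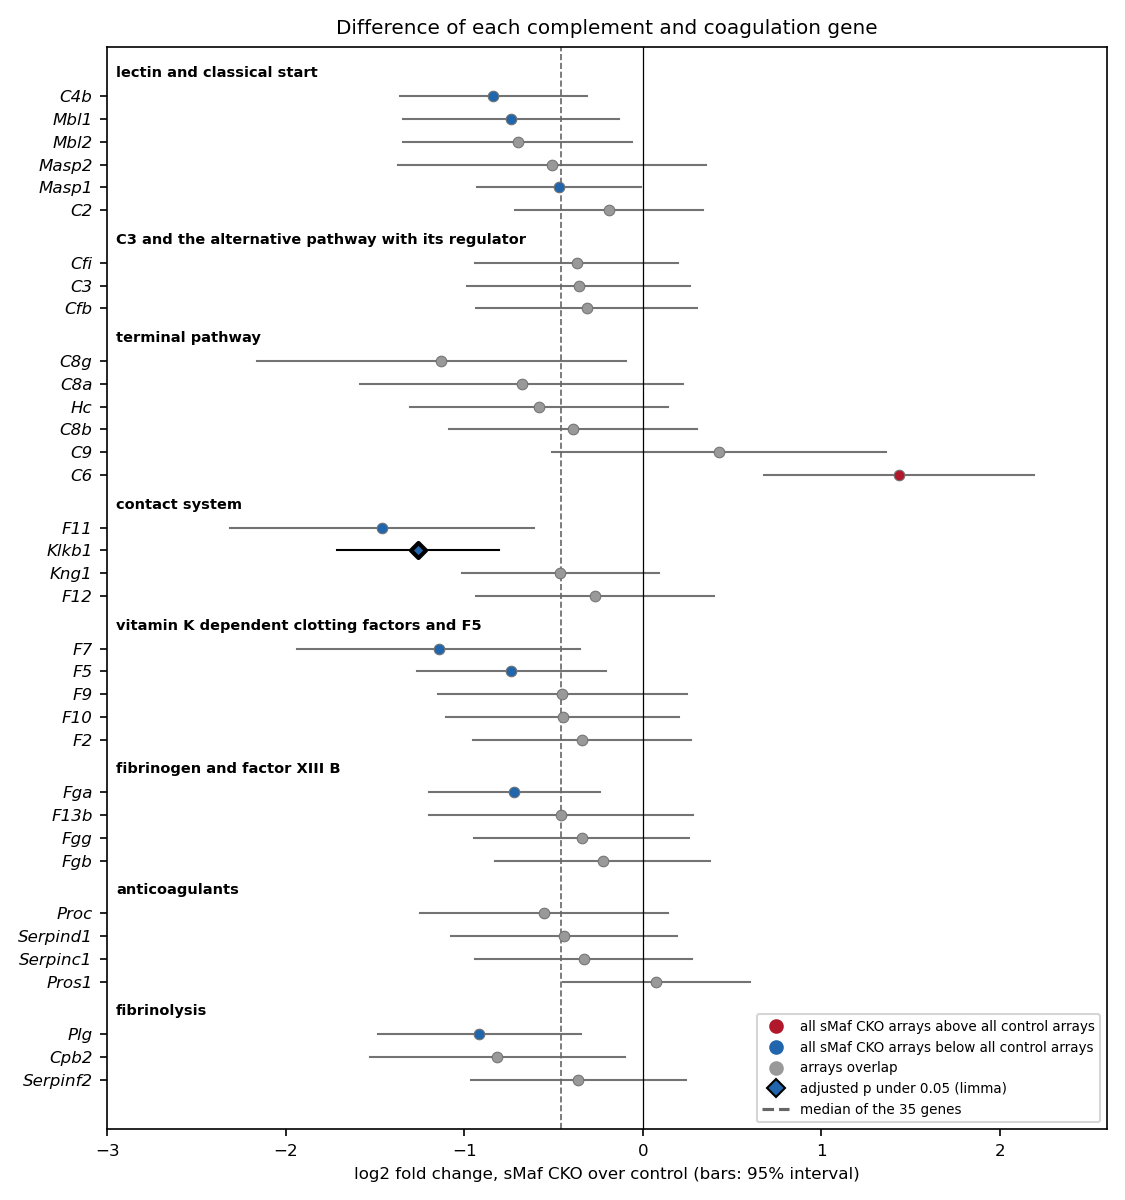
Log2 fold change of each of the 35 tested genes, sMaf CKO over control (x axis), with its 95% interval from limma, grouped by role. The diamond marks Klkb1, the 1 gene past the threshold, the dashed line the median of -0.46, and C6 is the 1 gene whose sMaf CKO arrays all lie above the control arrays.

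The contact system starts the intrinsic route of clotting and releases bradykinin: kallikrein (Klkb1) and factor XII (F12) activate each other, factor XII activates factor XI (F11), and kallikrein cuts kininogen (Kng1). Klkb1 and F11 encode closely related proteases and are neighbours on chromosome 8, with no protein-coding gene between them. Their promoters are shown because these genes had the clearest lower levels, and that of C6 because it went the other way. The sequences are from RefSeq (GRCm38.p6) and run from 250 bases before to 50 bases after the start of the gene, in the direction of the gene. Capitals mark TGACNNNGC, the core of the element that CNC and small Maf pairs bind, and TTGCNNAA, a core bound by C/EBP factors, on either strand. The Klkb1 promoter is chr8:45294786-45295085 (minus strand), that of F11 chr8:45261982-45262281 (minus strand) and that of C6 chr15:4726960-4727259 (plus strand).
Klkb1: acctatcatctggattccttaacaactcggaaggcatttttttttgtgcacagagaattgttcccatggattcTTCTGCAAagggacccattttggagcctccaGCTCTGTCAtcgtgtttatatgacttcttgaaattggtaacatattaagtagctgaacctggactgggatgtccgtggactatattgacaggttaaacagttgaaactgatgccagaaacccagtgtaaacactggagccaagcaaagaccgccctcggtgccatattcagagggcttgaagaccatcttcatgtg
F11: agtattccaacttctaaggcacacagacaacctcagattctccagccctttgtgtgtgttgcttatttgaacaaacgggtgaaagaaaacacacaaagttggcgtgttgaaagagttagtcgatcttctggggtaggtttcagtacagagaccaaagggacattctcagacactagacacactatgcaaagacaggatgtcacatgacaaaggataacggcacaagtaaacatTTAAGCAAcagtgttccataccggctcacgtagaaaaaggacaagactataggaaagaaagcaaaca
C6: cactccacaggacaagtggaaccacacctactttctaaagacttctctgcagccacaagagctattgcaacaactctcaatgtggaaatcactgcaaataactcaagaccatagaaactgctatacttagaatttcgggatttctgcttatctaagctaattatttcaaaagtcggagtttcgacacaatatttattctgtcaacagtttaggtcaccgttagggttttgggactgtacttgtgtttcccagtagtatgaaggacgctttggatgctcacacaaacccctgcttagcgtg
The Klkb1 window holds a match to each of the motifs, the F11 window a match to TTGCNNAA alone, and the C6 window none of either. Promoter sequences were at hand for 28 of the 36 genes (29 promoters). TGACNNNGC occurred in 3 of the 29 (Klkb1, Mbl1 and Serpind1; 10.3%) and in 12.4% of all 32851 promoters of the table. TTGCNNAA occurred in 9 of the 29 (31.0%; C3, C9, Cpb2, F11, F9, Fga, Fgb, Klkb1 and Serpinc1) and in 10.8% of all. TGCTGAC, which is part of the longer small Maf recognition element, occurred in 4 of the 29 (13.8%; C8b, F2, Fga and Serpind1) and in 4.67% of all. These are matches of letters in a window of 300 bases and not binding sites. The contrast between the promoters shown did not hold for all other genes. C9 (0.43) had a match to TTGCNNAA, whereas F7 (-1.14) and C8g (-1.13) had none to TGACNNNGC or TTGCNNAA.

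Klkb1 had levels of 1.89, 1.95 and 2.06 on the sMaf CKO arrays, against 3.18, 3.31 and 3.19 on the control arrays. The values within each group lay close together and the groups were far apart. The means were 1.97 ± 0.09 in sMaf CKO and 3.23 ± 0.07 in control liver (SD, n = 3 each), a log2 fold change of -1.26 (SE 0.19, adjusted p = 0.0485 by limma; -1.32 within slide 1 and -1.13 within slide 2). It was also the smallest change in size among the 114 genes that passed the test over the whole array. The call was lost under quantile normalization (-1.15, adjusted p = 0.0628), spike-in scaling (-0.93, adjusted p = 0.614), normexp background correction (adjusted p = 0.0521) and with no filter on dim probes (adjusted p = 0.177). It was also lost when any array other than sMaf CKO replicate 3 was left out, with adjusted p from 0.0873 to 0.167.

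F11 had levels of 3.62, 3.93 and 4.93 on the sMaf CKO arrays, against 5.29, 5.70 and 5.88 on the control arrays. All sMaf CKO arrays lay below the control arrays, with the smallest gap for sMaf CKO replicate 3. The difference was larger than that of Klkb1 but so was its error (-1.46, SE 0.37, adjusted p = 0.13 by limma), and F11 joined Klkb1 past the threshold in a fit that held slide as a block (adjusted p = 0.0496, beside 1.61% of all genes called and 0.622% called lower). It also passed when sMaf CKO replicate 3 was left out (-1.84, adjusted p = 0.0329). Kng1 (-0.46; -0.81 with no overlap on its other probe) and F12 (-0.27) overlapped between the groups, and F12 was positive when arrays were quantile normalized (0.13) or scaled on spike-ins (0.06).

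**Figure D2:**
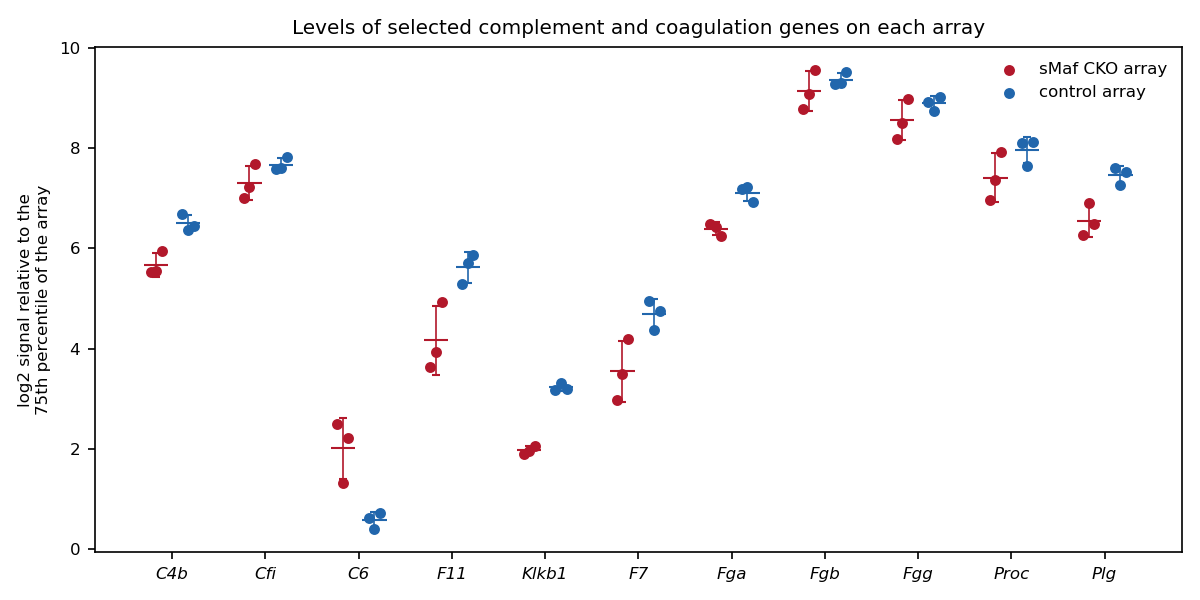
Levels (log2 signal minus the array's 75th percentile, y axis) of 11 genes on the 3 sMaf CKO arrays (red) and the 3 control arrays (blue), with the mean as a line and the SD as a bar. Levels of different probes are not comparable with each other; Klkb1 has the tightest groups, whereas Fgb and Fgg overlap.

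Factors VII (F7), IX (F9) and X (F10) and prothrombin (F2) are the vitamin K dependent proteases of the cascade, and factor V (F5) is the cofactor of factor X. F7, which starts clotting together with tissue factor, had levels of 2.97, 3.48 and 4.18 on the sMaf CKO arrays, against 4.95, 4.36 and 4.75 on the control arrays. The groups did not overlap, though sMaf CKO replicate 3 came near the lowest control. The difference of -1.14 (SE 0.34, 95% interval -1.94 to -0.35) did not pass over all genes (adjusted p = 0.174 by limma), with -1.43 on slide 1 and -0.57 on slide 2. F5 differed by -0.74 with no overlap (adjusted p = 0.187) and by nearly the same amount on each slide (-0.73 and -0.75). F10 lies next to F7 on chromosome 8 with no protein-coding gene between them, yet its difference was -0.45 with overlapping arrays. F9 (-0.45) and F2 (-0.34) overlapped likewise, and F2 turned to 0.06 under quantile normalization.

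Fibrinogen, the substrate of thrombin and an acute phase protein, is built from chains encoded by Fga, Fgb and Fgg, which lie side by side on chromosome 3. Fga had levels of 6.49, 6.44 and 6.26 on the sMaf CKO arrays, against 7.18, 7.23 and 6.93 on the control arrays. Its groups did not overlap (-0.72, SE 0.21, adjusted p = 0.164 by limma; -0.74 within slide 1 and -0.68 within slide 2). Fgb had levels of 8.78, 9.09 and 9.57 on the sMaf CKO arrays, against 9.29, 9.30 and 9.53 on the control arrays. Fgg had levels of 8.19, 8.51 and 8.99 on the sMaf CKO arrays, against 8.93, 8.75 and 9.03 on the control arrays. Replicate 3 of sMaf CKO lay above all controls for Fgb and within their range for Fgg, and the differences were -0.23 (95% interval -0.83 to 0.38) and -0.34 (95% interval -0.95 to 0.26). Both were positive under quantile normalization (0.09 and 0.07), as was Fgb under spike-in scaling (0.10). No test compared Fga with the other chains. F13b, the carrier subunit of the factor that cross-links fibrin, differed by -0.46 and overlapped.

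In the lectin and classical start of complement, Mbl1 and Mbl2 encode the mannose-binding lectins, Masp1 and Masp2 their proteases, and C2 and C4b the pieces of the convertase that cleaves C3. All 6 differences were negative, as were 54.7% over all genes, and 4 had an unadjusted p under 0.05 (8.1% of all genes in this direction), but 0 passed over all genes by limma. Their median of -0.60 was -0.37 under quantile normalization and -0.28 under spike-in scaling, where the median of all genes was 9.7e-05 and 0.27. C4b had levels of 5.53, 5.54 and 5.95 on the sMaf CKO arrays, against 6.70, 6.38 and 6.45 on the control arrays. The sMaf CKO arrays were all lower (-0.84, SE 0.22, adjusted p = 0.151 by limma; -1.002 within slide 1 and -0.51 within slide 2). C4b has a near-identical neighbour, C4a, and probe sequences were not used here to tell their signals apart. Mbl1 (-0.74) and Masp1 (-0.47) also did not overlap, while Mbl2 (-0.70) and Masp2 (-0.51) did. C2 had the smallest difference of the 6 (-0.19), and it was positive after quantile normalization (0.20) or scaling on spike-ins (0.14).

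C3, the protein on which all complement routes meet, factor B (Cfb), the protease of the alternative route, and factor I (Cfi), which inactivates C3b, had small differences. Cfi had levels of 7.002, 7.23 and 7.68 on the sMaf CKO arrays, against 7.59, 7.60 and 7.83 on the control arrays. The groups overlapped through sMaf CKO replicate 3, and the difference was -0.37 (95% interval -0.94 to 0.20, adjusted p = 0.483 by limma). C3 differed by -0.36 and Cfb by -0.32, both with overlap, and under quantile normalization Cfb (0.07) and Cfi (0.03) were positive, as was Cfb under spike-in scaling (0.01). Cfd, the factor D protease that activates factor B and is best known from adipocytes, was not well above background on any sMaf CKO array and was on 1 of 3 control arrays. Its measured levels were -8.27, -6.91 and -5.38 on the sMaf CKO arrays, against -6.26, -6.04 and -7.02 on the control arrays, too dim for a fold. Of 6 adipocyte markers, Plin1 and Lep were not well above background on any array, Adipoq on 2 and Retn on 1 of the control arrays only. Cidec (2.61, adjusted p = 0.075 by limma) and Fabp4 (0.45) were well above background on all 6 arrays and had all sMaf CKO arrays above the control arrays.

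The terminal pathway builds the membrane pore from C5 (Hc), C6, the C8 chains and C9, and its differences had either sign. C6 had levels of 2.48, 1.32 and 2.21 on the sMaf CKO arrays, against 0.61, 0.38 and 0.71 on the control arrays. Every sMaf CKO array was above every control array, although sMaf CKO replicate 2 was clearly closer to them than the others. The difference of 1.43, or 2.70-fold (SE 0.32, 95% interval 0.68 to 2.19), was of like size on the slides (1.40 and 1.50) but did not pass over all genes (adjusted p = 0.105 by limma). It was positive under each scaling tried and whichever array was left out, with values from 1.20 to 1.78. C9, whose gene lies near C6 on chromosome 15 with 8 protein-coding genes between them, differed by 0.43 (95% interval -0.51 to 1.36) with overlap. C8g, the small chain of C8, differed by -1.13 (SE 0.44, adjusted p = 0.266 by limma) but by -1.57 within slide 1 and -0.25 within slide 2, and its arrays overlapped. The neighbours C8a (-0.68) and C8b (-0.39), and Hc (-0.58), overlapped as well.

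Among the anticoagulants, protein C (Proc) and its cofactor protein S (Pros1) inactivate factors V and VIII, and antithrombin (Serpinc1) and heparin cofactor II (Serpind1) are serpins that trap thrombin. None of the 4 had groups apart on the probe used. Proc had levels of 6.96, 7.36 and 7.93 on the sMaf CKO arrays, against 8.12, 7.66 and 8.13 on the control arrays. Its difference was -0.55 (95% interval -1.25 to 0.14, adjusted p = 0.396 by limma). Serpind1 differed by -0.44, Serpinc1 by -0.33 (0.10 under quantile normalization) and Pros1 by 0.08, which was -0.03 without sMaf CKO replicate 3.

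In fibrinolysis, plasminogen (Plg) is the precursor of plasmin, alpha-2-antiplasmin (Serpinf2) inhibits plasmin, and the carboxypeptidase TAFI (Cpb2) protects fibrin from it. Plg had levels of 6.27, 6.91 and 6.49 on the sMaf CKO arrays, against 7.61, 7.28 and 7.52 on the control arrays. The groups did not overlap (-0.91, SE 0.24, adjusted p = 0.149 by limma; -0.85 within slide 1 and -1.04 within slide 2), and the other probe of Plg gave -0.86. Cpb2 differed by -0.81 with overlap through sMaf CKO replicate 3, and Serpinf2 by -0.36 (0.03 under quantile normalization).

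In these 35 genes, the sMaf CKO arrays differed among themselves more than the control arrays did. The SD was larger in sMaf CKO than in control liver for 32 of the 35 genes, with a median SD of 0.41 in sMaf CKO and 0.21 in control. The genes were read on the same arrays, so that this count is not 35 separate readings. The share over all genes was not computed, so the wider spread is not shown to be particular to these genes. Hepatocyte markers had it too, such as Alb (SD 0.44 in sMaf CKO and 0.20 in control liver) and Cyp2e1 (0.48 and 0.17). Tat alone of those tested went the other way (0.41 and 0.46). The median difference of the 35 genes from their control means was -0.76, -0.47 and 0.01 on sMaf CKO arrays 1, 2 and 3, and 0.06, -0.15 and 0.10 on control arrays 1, 2 and 3. sMaf CKO replicate 1 held the lowest of its group's values for 28 genes and replicate 3 the highest for 32. Replicate 1 was also the brightest array, and replicate 3 the one that kept the most Mafg signal and lay on slide 2. The part of brightness, slide and remaining Mafg in this order was not tested. Within slide 1 the median log2 fold change was -0.57 with 33 of 35 negative, and within slide 2, 1 array against 1, it was -0.21 with 25 of 35 negative. Without sMaf CKO replicate 3, 2 genes passed, Klkb1 (-1.31, adjusted p = 0.046) and F11 (adjusted p = 0.0329), and without any 1 of the other 5 arrays 0 did.

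**Figure D3:**
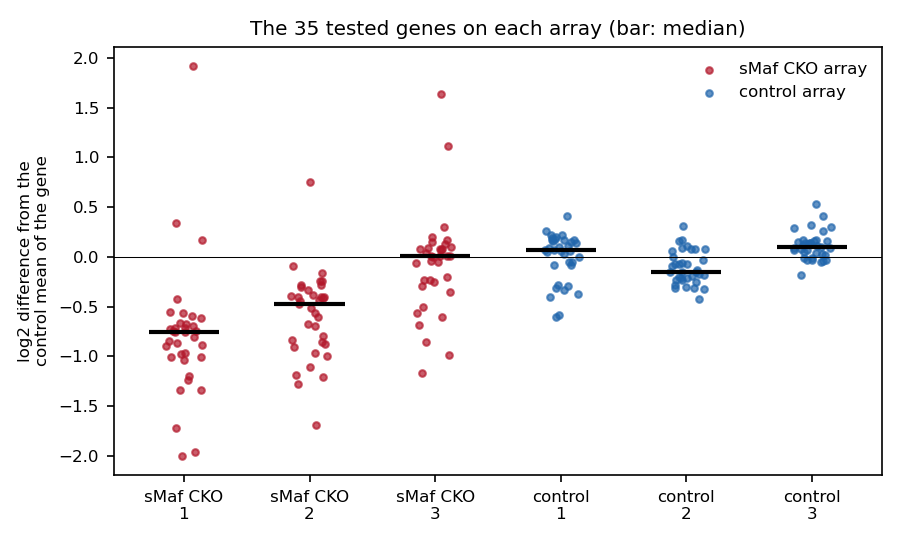
Difference of each of the 35 genes from its mean over the control arrays (log2, y axis), 1 point per gene, on each sMaf CKO array (red) and control array (blue). The black bars are the medians, -0.76, -0.47 and 0.01 on the sMaf CKO arrays and 0.06, -0.15 and 0.10 on the control arrays.

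The differences depended on how the arrays were scaled to each other. The 17 brighter genes of the 35 had a median log2 fold change of -0.44 that became -0.02 under quantile normalization, while that of the 18 dimmer genes was -0.49 and became -0.39. Quantile normalization gives a rank the same value on every array. It can therefore remove a difference shared by the brightest genes of an array by its construction, and the -0.02 cannot show whether such a difference was present. Spike-in scaling raised every gene alike and the median of all genes by 0.33, so it could not change the order of the differences. Under quantile normalization F11, Klkb1 and F7 stayed the 3 most negative of the 35 (-1.22, -1.15 and -0.96) and C6 the most positive (1.51).

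**Figure D4:**
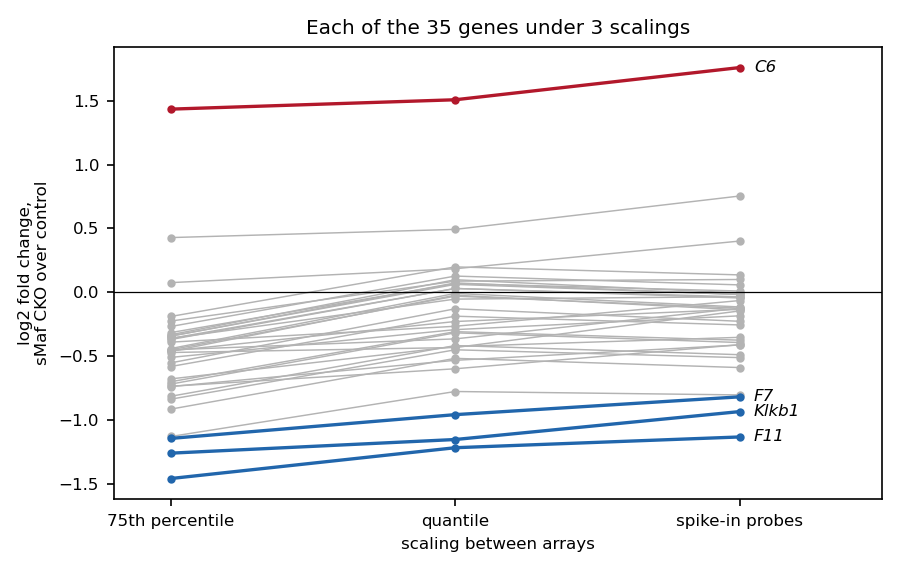
Log2 fold change of the 35 genes, sMaf CKO over control (y axis), when arrays are scaled on the 75th percentile, by quantile normalization or on spike-in probes (x axis). Each line is a gene, with F7, Klkb1 and F11 in blue and C6 in red. Spike-in scaling moves every gene up by the same amount, so it cannot change their order.

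Scaling by 1 factor for each array cannot change how a gene stands among the others on the same array. After the median shift of the 35 genes was taken off each array, F11 still differed by -0.99, Klkb1 by -0.79 and F7 by -0.68, with no overlap between the groups. C6 differed by 1.90, again with no overlap. The centring itself puts about as many of the 35 genes above 0 as below it, so that only the ends of the range are given. C4b, Masp1, F5, Fga and Plg, which were apart in the scaled levels, overlapped.

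Probes and neighbours were compared as further readings. Of the 35 genes, 9 had other probes, and all 10 of these gave the same sign as the one used, with a gap of at most 0.44. Serpinc1 had that gap (-0.33 with overlap, and -0.78 with no overlap on its other probe). There were 6 pairs of the 36 genes with no protein-coding gene between them. F11 with Klkb1 had similar differences (-1.46 and -1.26), as did Cfb with C2 (-0.32 and -0.19), whereas F7 with F10 (-1.14 and -0.45) and Fga with Fgb (-0.72 and -0.23) were further apart.

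The other genes of the pathways, 48 in all, come from many cell types. Of the 43 tested, 0 passed limma's test over all genes in either direction. An unadjusted p under 0.05 was found for 9 with positive and 8 with negative differences, where all genes gave 8.71% and 8.1%, and the median was -0.20. All sMaf CKO arrays were higher for 9 genes and lower for 10, where all genes gave 11.3% and 11.6%. With slide as a block 1 of them passed, Serpina5.

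Plaur, the urokinase receptor, differed by 1.76 (SE 0.46, adjusted p = 0.142 by limma) and the tissue plasminogen activator Plat by 1.45 (adjusted p = 0.202), both with no overlap. For Plat, sMaf CKO replicate 1 was far above the others. Plau, the urokinase, had overlapping arrays (1.63, SE 1.20), and histidine-rich glycoprotein (Hrg), a plasma protein of hepatocytes, had lower levels on all sMaf CKO arrays (-0.96, adjusted p = 0.25). On the same arrays, 6 of 6 stellate cell markers had positive differences, 0 of them past the test. Of these, 3 had an unadjusted p under 0.05 by limma (8.71% of all genes in this direction). All sMaf CKO arrays were higher for 4 (11.3% of all genes). The summed linear level of the 6 stellate cell markers was 118.3 to 141.2 in sMaf CKO liver and 78.3 to 100.8 in control liver. That sum rests mostly on Dcn, by far the brightest of the 6 (mean level 6.57 in sMaf CKO and 6.15 in control liver). Differences of cholangiocyte markers were positive for 6 of 6, and those of liver endothelial markers for 2 and negative for 4. Over all genes 54.7% were negative. The part of stellate, macrophage, cholangiocyte or endothelial RNA in the differences of Plaur, Plat and Plau was not tested.

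Serpina5, the protein C inhibitor, had levels of -6.60, -7.46 and -4.40 on the sMaf CKO arrays, against -2.64, -3.27 and -1.83 on the control arrays. It was well above background on all 3 control arrays and on 1 of 3 sMaf CKO arrays, so that its difference of -3.57 (SE 0.75, adjusted p = 0.0871 by limma) rests partly on dim values. With normexp background correction the difference was -1.13 (adjusted p = 0.396), whereas the fit with the slide block called it (adjusted p = 0.0172). Serping1, the inhibitor of C1 and of kallikrein, differed by -0.998 (SE 0.28, adjusted p = 0.158) and the plasma protease inhibitor Pzp by -0.73 (adjusted p = 0.151), both with all sMaf CKO arrays lower. The carboxylase Ggcx, which modifies the vitamin K dependent factors, differed by -0.68 (adjusted p = 0.221), also without overlap.

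C1qa, C1qb and C1qc, which encode the recognition part of C1 and are made largely by macrophages, differed by 0.74, 0.78 and 0.77 (adjusted p = 0.346, 0.298 and 0.244 by limma). Among genes read together with them were Fcna, a ficolin of macrophages (0.97), properdin (Cfp, 0.63) and the C3a receptor C3ar1 (1.26, SE 0.30, adjusted p = 0.119, well above background on 2 of 3 control arrays). C1qb, C1qc, Fcna, Cfp and C3ar1 had all sMaf CKO arrays above the control arrays. On the same arrays, 6 of 6 Kupffer cell markers had positive differences, from 0.29 for Timd4 and 0.61 for Clec4f to 3.73 for Marco. None passed over all genes by limma, while Marco did in the slide-block fit (adjusted p = 0.0107) and with median scaling (adjusted p = 0.0484). An unadjusted p under 0.05 was found for 3 (8.71% of all genes in this direction) and no overlap for 3 (11.3% of all genes). Their summed linear level was 171.4 to 392.7 in sMaf CKO liver and 71.8 to 114.1 in control liver, and all 6 were well above background on all arrays. In sMaf CKO liver the sum rests mostly on Cd5l and Marco (mean levels 6.79 and 6.48). Of 7 markers of monocyte-derived macrophages tested, 2 passed with a higher level (Trem2 and Gpnmb), beside 0.385% of all genes. Gpnmb was well above background on 0 of 3 control arrays and Trem2 on 2 of 3. Of the 7 differences, 6 were positive and 1 negative, that of Ly6c2 (-0.85, all sMaf CKO arrays lower). The summed level of the 7 markers was 41.7 to 71.4 in sMaf CKO and 41.5 to 52.1 in control liver. That sum rests mostly on Ly6c2 (mean level 4.04 in sMaf CKO and 4.89 in control liver) and Spp1 (4.28 and 3.25). The mean log2 level of the 7 markers, which weighs each alike, was 0.62 to 1.28 in sMaf CKO and -1.05 to -0.59 in control liver. The part of macrophage RNA in the C1q and C3ar1 differences was not tested. C1ra and C1s1, the proteases of the same C1 complex, which hepatocytes make, differed in the other direction (-0.48 and -0.44, adjusted p = 0.38 and 0.343). Of 11 complement regulators and receptors tested, which include Cfp and C3ar1, 4 differences were positive and 7 negative. Clusterin (Clu) was among the positive ones, with all sMaf CKO arrays higher (0.69, adjusted p = 0.221 by limma). Colec11 (0.06) and C4bp (-0.01) overlapped between the groups.

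**Figure D5:**
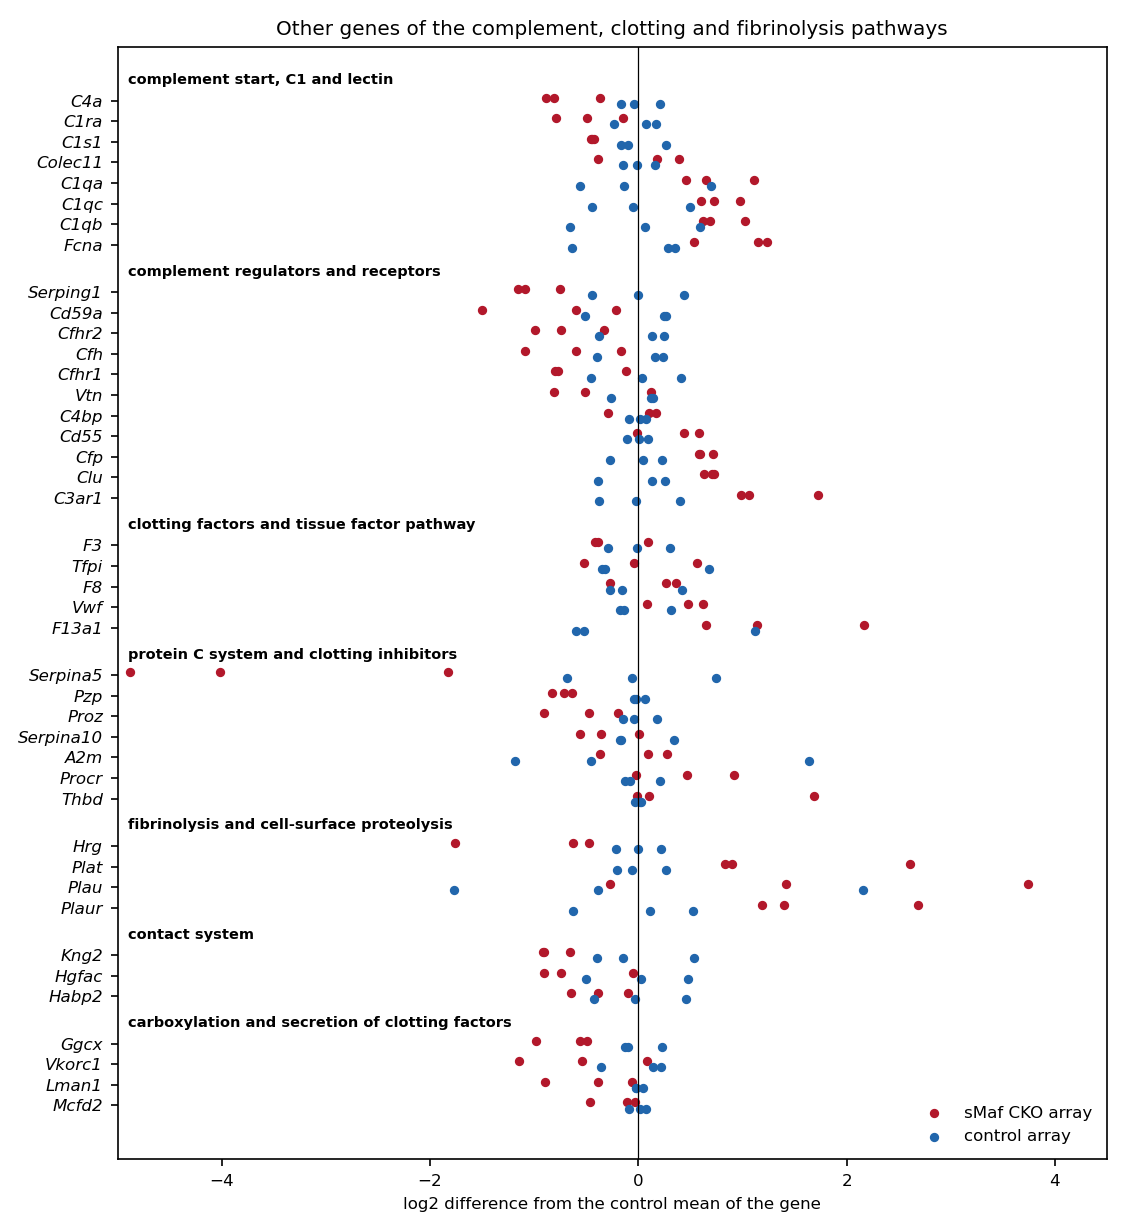
Difference of other complement, clotting and fibrinolysis genes, each from its mean over the control arrays (log2, x axis), with the sMaf CKO arrays in red above the control arrays in blue. Serpina5 lies furthest to the left, and the red points of Plaur and Plat lie to the right of the blue ones.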

How the data were processed

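RNA of 6 livers was read on one-colour Agilent mouse arrays from 500 ng of total RNA each, per the labels' protocols. Per the file headers, spot intensity was extracted with Agilent Feature Extraction 10.7.3.1 (array design on mm9) and is background-subtracted within the array. The deposited value table holds log2 values that equal the scaled scanner values centred on each probe's median over the 6 arrays (r of at least 0.9996 over 41174 probes). Its column medians were -0.10, -0.11 and 0.09 for sMaf CKO 1, 2 and 3 and 0.05, -0.02 and 0.08 for control 1, 2 and 3.

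Control spots and outlier spots were left out, spots of a probe were averaged, and each array's 75th percentile was taken off. A probe was kept if at least 3 of 6 arrays had it well above background (27859 of 41174, 0 saturated). Probes were named through their transcript accession in a RefSeq gene table on GRCm38.p6 (26690 matched), so no array coordinates are given. Where a gene had several such probes, the brightest on average was read. C3 had a spot left out as an outlier on an array. The comparison used limma 3.58.1 under R 4.3.3 (genotype alone, Benjamini-Hochberg over 21059 genes and transcripts). In simulated data, log2 changes of 1, 2 and 4 were called in 7.46%, 61.2% and 93.9% of the altered genes. The simulated noise was independent between genes, with the same SD in both groups. It held neither the wider spread of the sMaf CKO arrays nor shifts shared by genes of an array. The rates therefore do not give the chance of a call for the complement and coagulation genes. The precision is limited by 3 arrays in each group.

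A gene of the pathways was counted but is not reported by name. The members, lists and tests were chosen with earlier results of these data known. Values on every array are given for members past the threshold and for the member with the smallest p and with the largest difference in each role group. They are also given for the fibrinogen genes, Cfd and Mafg, and, of the other pathway genes, for Serpina5. C1q genes and the others named beside them, and the values within slides and relative to the other members, were picked with their values in view. Alternatives were quantile, median and spike-in scaling, normexp (offset 50, on median signals), the deposited table, other filters, the mean of probes, slide and replicate blocks, trend and robust settings, stricter thresholds and leaving out each array.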

Additional observations from a re-analysis of the deposited data

How the results depend on the processing

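The median log2 fold change of the members stayed negative under every alternative, from -0.65 to -0.13. Leaving aside the comparisons within a slide and the levels relative to the other members, 25 of the 35 members kept their sign in all alternatives. The signs that turned were those of C2 (0.20), Cfb (0.068), Cfi (0.030), F12 (0.13), F2 (0.062), Fgb (0.088), Fgg (0.074), Serpinc1 (0.10) and Serpinf2 (0.030) under quantile normalization, of C2 (0.14), Cfb (0.010), F12 (0.058) and Fgb (0.10) under spike-in scaling, and of Pros1 without sMaf CKO replicate 3, its values with 1 array left out running from -0.035 to 0.234. In the levels relative to the other members, C3, C8b, F9, F10, Kng1, F13b and Serpind1 were positive too (0.0032 to 0.11). Within slide 2, 1 array against 1, Masp2 (0.052) and C8b (0.012) were positive as well. The cause of these turned signs was not tested.

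The count of 1 member was 0 under quantile normalization, spike-in scaling, normexp, no filter on dim probes, the replicate block, an adjusted p under 0.01 and within slide 1, and 2 with slide as a block. It was 0 to 2 when an array was left out. Klkb1 passed in 7 of 17 other settings, with log2 fold changes from -1.31 to -0.93. For the other pathway genes the count of 0 became 1 with median scaling, the filter on all 6 arrays, the slide block and the replicate block, and was 0 to 1 when an array was left out. Over all genes the count of 114 was 22 under quantile normalization, 252 with median scaling, 13 with spike-in scaling, 74 with normexp, 1 with no filter, 267 with probes well above background on all 6 arrays, 340 with the slide block, 291 with the replicate block, 308 with trend and robust settings, 3 at an adjusted p under 0.01, and 3 to 294 when an array was left out. The split of 81 higher and 33 lower became 18 and 4 under quantile normalization and 143 and 151 without sMaf CKO replicate 3.

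Replicate numbers are shared between the groups, and deviations of same-numbered arrays correlated at 0.06, 0.17 and 0.42 over genes, so the numbers were not taken as pairs. With the replicate block Klkb1 had an adjusted p of 0.0565. Dim probes such as Cfd and Serpina5 are limited by their signal over background.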
